A study of Mus musculus with 6 samples.

Results

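The 34 genes described here encode enzymes that make cholesterol, proteins that control the SREBP transcription factors, and proteins that move, store or break down cholesterol. They were chosen by name, and all 34 were found among the 43346 rows of the deposited table and passed the filter on low counts, which left 15127 genes tested. By role they are 18 synthesis enzymes, 5 SREBP regulators and 11 genes of transport, efflux and turnover. RNA came from brains of adult males, 3 of them Kdm5c deficient and 3 wild-type littermates. Kdm5c is X-linked and encodes a histone demethylase. Both genotypes came from heterozygous deficient females of C57BL/6 background bred with wild-type males of strain 129, so all 6 mice descend from both strains. The labels name neither the allele nor the brain region, and they do not say which mice shared a litter.

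Brain cholesterol is made inside the brain, because lipoproteins of the blood hardly cross the blood-brain barrier. Acetyl-CoA is built up to mevalonate, to isoprenoids and to squalene, which is closed to lanosterol and then trimmed to cholesterol. Low sterol in the endoplasmic reticulum lets SCAP carry the SREBP proteins to the Golgi, where they are cut and released to raise transcription of the enzymes, and INSIG proteins hold them back. Neurons remove cholesterol by hydroxylating it, and liver X receptors respond to such oxysterols by raising efflux transporters.

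The libraries held from 20221675 to 24555412 counts, and the members from 73 to 9728 reads per mouse. Kdm5c RNA averaged 72.8 ± 6.75 CPM in deficient and 81.5 ± 3.43 CPM in wild-type mice (SD, n = 3 each), and did not pass edgeR's quasi-likelihood test (adjusted p = 0.196); this level does not check the labels since the allele is not described. Deficient mouse 2 stood apart in markers of the cerebellum: the summed level of 12 such genes was 2934, 1083 and 2407 CPM in deficient mice 1, 2 and 3, against 3218, 3372 and 3710 CPM in wild-type mice 1, 2 and 3. Itpr1 made up 1305, 736.9 and 1164 CPM of the sums in deficient mice and 1462, 1526 and 1710 CPM in wild-type mice. In log2 CPM, the mean deviation of the 12 genes from their mean over all mice was 0.40, -2.17 and 0.02 in deficient mice. In wild-type mice it was 0.50, 0.55 and 0.70. All 12 had log2 fold changes below 0 and none passed the test. Markers of astrocytes, oligodendrocytes and neurons were present in every mouse, with none listed at 0.

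Most of the 34 genes differed little between the genotypes, and 1 of them passed the test. Stard4, which encodes a carrier of sterols through the cytosol, fell in deficient brain. No member rose. For the other 33, edgeR's quasi-likelihood test gave no p under 0.05 after Benjamini-Hochberg adjustment over all genes tested. Over all 15127 genes 4.93% passed, 2.48% of all genes as lower and 2.45% as higher, and 1 of 34 members (2.94%) is no larger a share. At an unadjusted p under 0.05 there were 8 members (23.5%), against 24.9% of all genes tested. The CPM values of the genotypes did not overlap for 10 members (29.4%), against 30.8% of all genes tested. Of these 10, 4 were higher in deficient mice, where the share of all genes was 14.9%, and 6 were lower, where it was 16.0%. The median log2 fold change of the members was -0.06 and that of all genes tested 0.0012. In whole tissue, fewer cells of a type and less RNA per cell cannot be told apart. The median size of the log2 fold change, whatever its sign, was 0.10 for the members and 0.12 for all genes tested.

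The precision was enough to bound most of these differences. For 32 of the 34 members the 95% interval of the fold change lay within 1.5-fold in either direction, as it did for 74.3% of all genes tested. The exceptions were Lcat and Nr1h3, which had the lowest CPM of the transport and turnover genes and the widest intervals, from 0.602 to 1.09-fold and from 0.593 to 1.02-fold. The estimate itself was beyond 1.25-fold for 2 members, Lss and Nr1h3, and for 17.1% of all genes tested. A member that did not pass is not thereby shown to be equal in the genotypes. Exons of Hmgcs1, Idi1, Fdps, Fdft1, Lss, Cyp51, Tm7sf2, Srebf1, Scap, Npc1 and Nr1h3 overlap another annotated gene, and whether strand was used in counting is not given, so the reads of these 11 are uncertain to that extent.

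**Figure D1:**
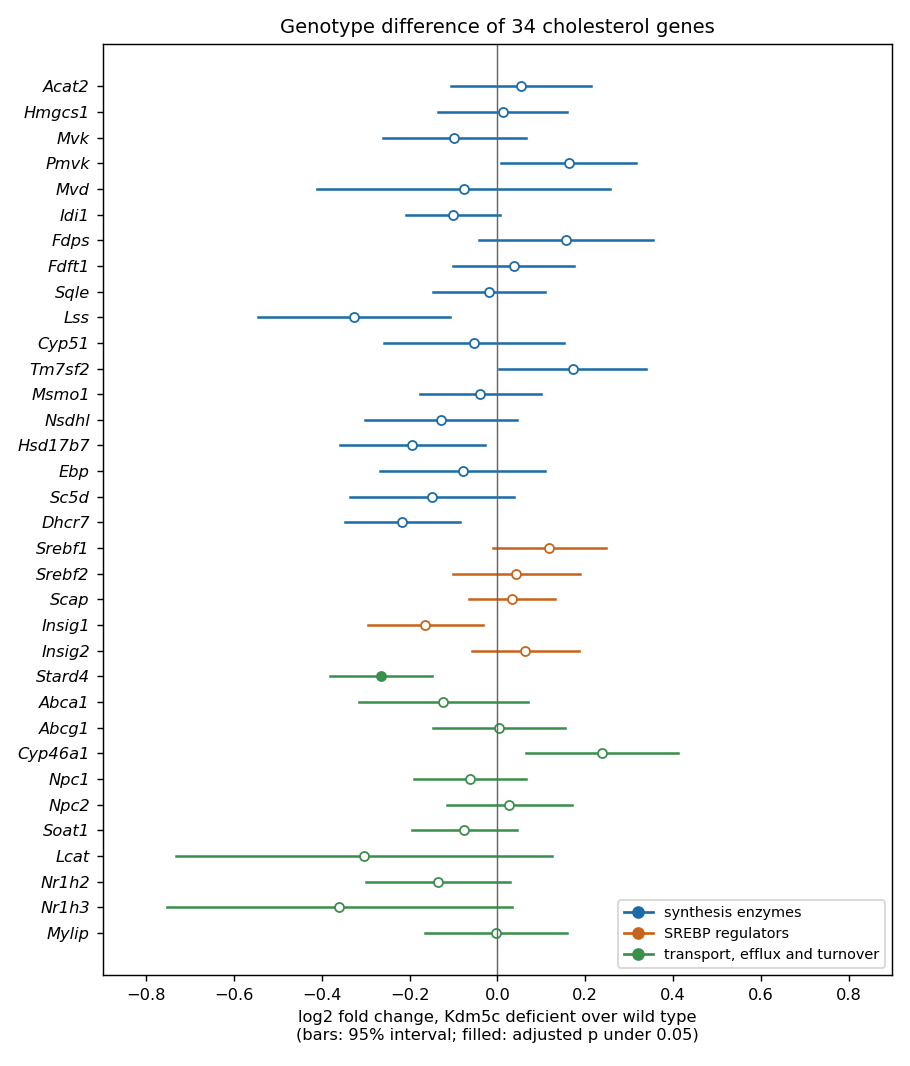
Each row is a member, the point its log2 fold change of Kdm5c deficient over wild type, and the bar its 95% interval (n = 3 mice each). The filled point is Stard4 at -0.26, and the widest bars belong to Nr1h3 and Lcat.

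Per kilobase of annotated exon, the members spanned a wide range of levels, and the order was led by Hmgcs1, the synthase that makes HMG-CoA. Its level was 81.8 CPM per kilobase in deficient and 81.2 CPM per kilobase in wild-type mice. Cyp46a1, the neuronal cholesterol hydroxylase, came next at 63.2 and 53.6 CPM per kilobase in deficient and wild-type mice, and Srebf2, the SREBP gene that drives sterol synthesis, at 36.0 and 35.0 CPM per kilobase. At the low end Lss stood at 1.22 CPM per kilobase in deficient and 1.53 CPM per kilobase in wild-type mice, and Nr1h3, which encodes a liver X receptor, at 1.55 and 1.99 CPM per kilobase. The annotated exons of Lss add up to 10787 bases over all its transcripts, which lowers its value per length. Between Sqle at 15.4 and 15.6 CPM per kilobase and Msmo1 at 14.3 and 14.7 CPM per kilobase in deficient and wild-type mice, neighbours in the order, the values of the mice overlapped.

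**Figure D2:**
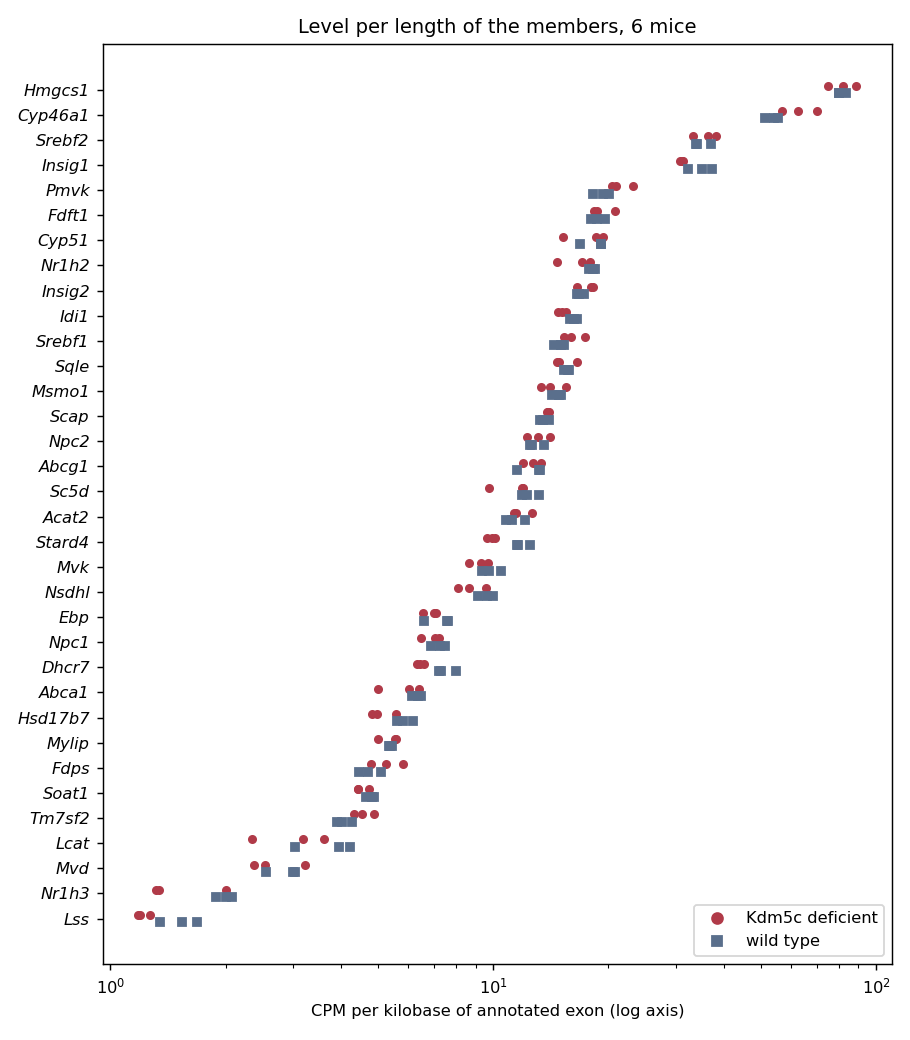
Each row is a member and each point a mouse, with CPM per kilobase of annotated exon on a log axis, Kdm5c deficient mice as circles and wild-type mice as squares. The order runs from Hmgcs1 at the top to Lss at the bottom, and the genotypes lie close together in most rows.

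Promoter windows of 300 bases, from 250 before to 50 after an annotated start, were available from RefSeq (GRCm38.p6) for 28 of the 34 members, some with several starts. The windows of 3 members are printed, none of which passed the test. Hmgcs1 is the most abundant enzyme and the member whose window held the SREBP motif searched. Insig1 is a regulator known to be driven by SREBP, and Cyp46a1 is the member with the highest estimated log2 fold change. Capitals mark the 4 motifs searched on both strands, the SREBP site TCACNCCAC, the CCAAT box bound by NF-Y, the GC box GGGCGG and the E-box CACGTG. Matches on the other strand appear as the reverse complement.
Hmgcs1, chr13:119690101-119690400, plus strand: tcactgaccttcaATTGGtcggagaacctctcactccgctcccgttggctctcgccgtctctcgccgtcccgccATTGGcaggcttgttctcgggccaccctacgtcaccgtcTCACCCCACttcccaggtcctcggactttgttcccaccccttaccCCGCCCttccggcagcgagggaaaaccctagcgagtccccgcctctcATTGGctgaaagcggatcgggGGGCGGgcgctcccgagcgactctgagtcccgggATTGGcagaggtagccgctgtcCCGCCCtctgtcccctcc
Insig1, chr5:28071162-28071461, plus strand: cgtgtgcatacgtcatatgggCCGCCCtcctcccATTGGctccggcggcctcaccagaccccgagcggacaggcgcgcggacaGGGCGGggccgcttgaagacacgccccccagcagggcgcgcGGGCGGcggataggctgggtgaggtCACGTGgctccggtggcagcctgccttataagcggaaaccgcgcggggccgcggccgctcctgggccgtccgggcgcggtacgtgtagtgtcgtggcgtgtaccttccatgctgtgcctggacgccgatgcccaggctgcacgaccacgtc
Cyp46a1, chr12:108334066-108334365, plus strand: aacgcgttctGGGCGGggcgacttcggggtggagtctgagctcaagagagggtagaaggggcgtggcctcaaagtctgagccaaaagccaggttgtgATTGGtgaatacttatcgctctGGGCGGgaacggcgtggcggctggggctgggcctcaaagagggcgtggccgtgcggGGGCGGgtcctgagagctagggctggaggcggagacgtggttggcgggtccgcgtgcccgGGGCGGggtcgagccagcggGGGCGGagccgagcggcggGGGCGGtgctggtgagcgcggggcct
In these windows Hmgcs1 had 1 SREBP site, 4 CCAAT boxes and 3 GC boxes, Insig1 had 1 CCAAT box, 3 GC boxes and 1 E-box, and Cyp46a1 had 1 CCAAT box and 6 GC boxes. A CCAAT box was in a window of 23 of 28 members (82.1%), against 42.3% of 11265 tested genes with a window, and a GC box in 24 (85.7%), against 66.9%. The E-box was in 6 members (21.4%), against 11.3% of those genes, and the SREBP site in 1 (3.57%), against 1.37%. No motif overlapped another in the 3 windows printed. These are letter matches in 1 window length, not binding sites, and Fdps, Fdft1, Sqle, Stard4, Abcg1 and Npc1 had no entry.

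None of the 18 synthesis enzymes passed the test, beside 4.93% of all genes tested. Their median log2 fold change was -0.07, with 12 below 0 and 6 above. This median moved with single mice, to -0.02, -0.09 and -0.04 without deficient mouse 1, 2 and 3, and to -0.04, -0.04 and -0.03 without wild-type mouse 1, 2 and 3. In all 18 the 95% interval lay within 1.5-fold. At an unadjusted p under 0.05 there were 5, which were Pmvk and Tm7sf2 with higher and Lss, Hsd17b7 and Dhcr7 with lower means in deficient brain.

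The stage up to farnesyl diphosphate showed values on both sides of 0. Acat2, the thiolase of the opening step, averaged 30.0 ± 1.85 CPM in deficient and 28.9 ± 1.69 CPM in wild-type mice (SD, n = 3 each), and Hmgcs1 375.9 ± 32.5 and 372.9 ± 9.52 CPM. Hmgcs1, shown by mouse as the most abundant enzyme and picked after its values were seen, ranged more widely among deficient mice, with 343.3, 408.2 and 376.1 CPM, than among wild-type mice, with 367.3, 367.4 and 383.9 CPM, and the genotypes overlapped. Pmvk, the phosphomevalonate kinase gene, had 35.8, 39.7 and 35.0 CPM in deficient and 34.4, 33.1 and 31.2 CPM in wild-type mice. All 3 deficient values lay above the wild-type ones, with a log2 fold change of 0.16 ± 0.07 (SE) and an edgeR adjusted p of 0.181. The kinase gene Mvk, the decarboxylase gene Mvd and the isomerase gene Idi1 had log2 fold changes of -0.10, -0.08 and -0.10, and Fdps, the farnesyl diphosphate synthase gene, 0.16, with adjusted p from 0.227 to 0.783 by edgeR. Idi1 was without overlap between genotypes, at 53.0 ± 1.35 CPM in deficient and 56.9 ± 1.18 CPM in wild-type mice (SD, n = 3 each). The near copies Acat3 and Idi2, which could share reads with Acat2 and Idi1, held few reads, from 21 to 41 for Acat3 and from 0 to 2 for Idi2 in any mouse.

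Around squalene, Fdft1, which encodes squalene synthase, and Sqle, the epoxidase gene that is a rate-limiting step of the pathway, were nearly level, with log2 fold changes of 0.04 ± 0.06 and -0.02 ± 0.06 (SE). Lss, the cyclase gene that forms lanosterol, had 13.7, 12.8 and 12.9 CPM in deficient and 14.5, 16.6 and 18.2 CPM in wild-type mice. The genotypes did not overlap, and the wild-type mice were more spread than the deficient ones. Its log2 fold change of -0.33 ± 0.10 (SE) was the farthest from 0 among the enzymes but missed the threshold, with an edgeR adjusted p of 0.0856 and an interval from 0.685 to 0.928-fold.

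From lanosterol to cholesterol, 7 of 8 enzymes had log2 fold changes below 0, at a median of -0.10, and none passed the test. This division into stages was made after the values were seen. Between the genotypes, oligodendrocyte markers were also mostly lower: 10 of 12 had log2 fold changes below 0, at a median of -0.13, and 2 were called lower and none higher. Their summed level was 7752, 6358 and 6168 CPM in deficient mice, against 8427, 8811 and 7784 CPM in wild-type mice. Among the 3 deficient mice, all 12 markers were highest in mouse 1, against 35.9% of all genes tested. In that mouse 11 of the 18 synthesis enzymes were the lowest of the 3, against 34.9% of all genes tested. The part of these markers in the enzyme values was not tested. Dhcr7, the reductase gene of the last step to cholesterol, had 37.4, 38.4 and 36.8 CPM in deficient and 41.9, 46.4 and 42.5 CPM in wild-type mice. Every deficient value lay below every wild-type value, with a log2 fold change of -0.22 ± 0.06 (SE) and an edgeR adjusted p of 0.0667. Hsd17b7, a sterol ketone reductase gene, had 24.6, 28.4 and 25.4 CPM in deficient and 31.4, 28.7 and 29.6 CPM in wild-type mice, also without overlap, at -0.19 ± 0.07 (SE) and an edgeR adjusted p of 0.145. Tm7sf2, a sterol reductase gene, was the exception in direction, at 20.2 ± 1.21 CPM in deficient and 17.9 ± 0.794 CPM in wild-type mice (SD, n = 3 each), with a log2 fold change of 0.17 ± 0.07 (SE) and an edgeR adjusted p of 0.192. The lanosterol demethylase gene Cyp51 and the demethylation genes Msmo1 and Nsdhl had -0.05, -0.04 and -0.13, and the isomerase gene Ebp and the desaturase gene Sc5d had -0.08 and -0.15, with adjusted p from 0.296 to 0.754 by edgeR.

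Among the 5 SREBP regulators none passed the test, beside 4.93% of all genes tested, and the median log2 fold change was 0.04. Insig1, a retention protein gene that SREBP itself drives, had 96.5, 96.9 and 95.2 CPM in deficient and 108.5, 115.3 and 99.7 CPM in wild-type mice. The deficient values lay close together below the wild-type ones, which were wider, and the log2 fold change was -0.16 ± 0.06 (SE, edgeR adjusted p = 0.127). Its relative Insig2 had 63.4, 57.5 and 62.5 CPM in deficient and 57.4, 59.8 and 58.3 CPM in wild-type mice, which overlapped, at 0.06 ± 0.05 (SE, edgeR adjusted p = 0.491). Srebf1, the SREBP gene known mainly for fatty acid synthesis, had 97.7, 86.3 and 90.0 CPM in deficient and 86.1, 81.3 and 84.9 CPM in wild-type mice. These did not overlap but came within 1 CPM of each other, at 0.12 ± 0.06 (SE, edgeR adjusted p = 0.235). Srebf2 averaged 258.8 ± 18.1 CPM in deficient and 251.1 ± 12.9 CPM in wild-type mice (SD, n = 3 each). Scap, the escort protein gene, had 103.4, 102.7 and 104.0 CPM in deficient and 100.5, 98.5 and 104.1 CPM in wild-type mice, at 0.03 ± 0.04 (SE, edgeR adjusted p = 0.678).

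**Figure D3:**
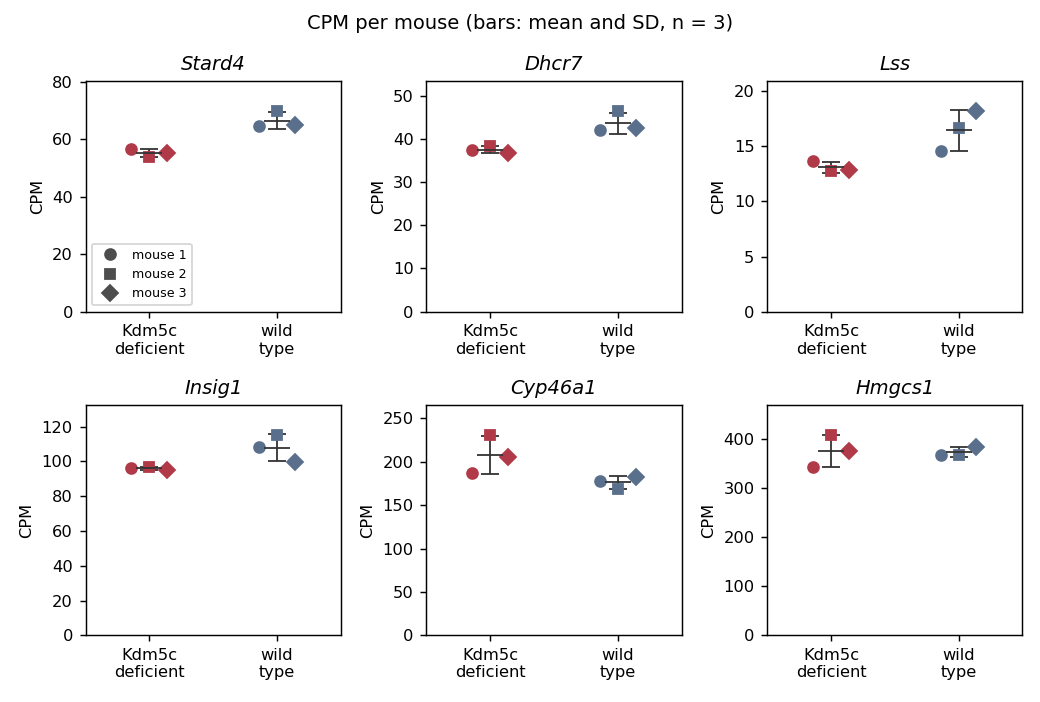
Points are the CPM of single mice, and bars the mean and SD (n = 3), for 6 members, with Kdm5c deficient mice left of wild-type mice. Stard4, Dhcr7, Lss and Insig1 lie lower in every deficient mouse, Cyp46a1 lies higher, and Hmgcs1 overlaps.

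Of the 11 transport, efflux and turnover genes, Stard4 fell and none rose (9.09%, beside 4.93% of all genes tested), with a median log2 fold change of -0.08. With GC and length offsets this median was -0.03. Stard4 had 1202, 1285 and 1203 reads in deficient mice, against 1595, 1427 and 1483 in wild-type mice, or 56.5, 53.9 and 55.4 CPM against 64.6, 69.8 and 64.9 CPM. Both groups were narrow and lay apart. The log2 fold change was -0.26 ± 0.05 (SE), or 0.768 to 0.902-fold as a 95% interval. The edgeR adjusted p was 0.0286, and its p ranked 332 among the 15127 genes. The exact permutation test, two-sided and on CPM, gave p = 0.1, the smallest that 3 against 3 mice allow. The authors' deposited table, with the sign turned to deficient over wild type, has a log2 fold change of -0.25 and an unadjusted p of 0.000328 for Stard4, the smallest among the members there too. The gene lies on chromosome 18 at 33199355 to 33213862, minus strand (GRCm38), and its exons overlap no other annotated gene. The call was lost without deficient mouse 3 (log2 fold change -0.27, edgeR adjusted p = 0.0764) and without wild-type mouse 1, 2 or 3 (-0.28, -0.23 and -0.28, edgeR adjusted p = 0.0966, 0.131 and 0.0834). It held without deficient mouse 1 or 2, where the log2 fold change was -0.28 and -0.25.

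Cyp46a1, which starts the removal of cholesterol from neurons, had the highest estimate among the members without passing. Its level was 186.7, 230.9 and 205.5 CPM in deficient and 177.4, 168.1 and 182.6 CPM in wild-type mice. The genotypes did not overlap, but deficient mouse 1 stood near the wild-type mice and deficient mouse 2 far above them. On the log2 scale the difference was 0.24 ± 0.08 (SE), at an edgeR adjusted p of 0.103. It passed with DESeq2 (adjusted p = 0.045) and without deficient mouse 1 (log2 fold change 0.31, edgeR adjusted p = 0.0178), and without deficient mouse 2 it was 0.16 (edgeR adjusted p = 0.167). The summed level of 8 excitatory neuron markers moved with it, at 3811, 5187 and 4734 CPM in deficient mice 1, 2 and 3, against 3679, 3436 and 3994 CPM in wild-type mice 1, 2 and 3. Camk2a made up 2518, 3552 and 3197 CPM of the sums in deficient mice and 2363, 2207 and 2560 CPM in wild-type mice. Deficient mouse 2 was the highest of the 3 deficient mice for 6 of the 8 markers and the lowest for 1. None of these 8 passed the test, and 7 had log2 fold changes above 0, with Cux2 below. The part of these markers in the Cyp46a1 value was not tested.

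The genes of the liver X receptor arm did not pass. Nr1h3 had 5.03, 3.32 and 3.36 CPM in deficient and 4.74, 5.24 and 5.03 CPM in wild-type mice. Deficient mouse 1 lay among the wild-type mice and the other 2 below them. Its log2 fold change was -0.36 ± 0.17 (SE, edgeR adjusted p = 0.239), and without deficient mouse 1 it was -0.58 and passed (edgeR adjusted p = 0.0301). Nr1h2, the receptor gene with broader expression, had 60.0, 49.3 and 57.1 CPM in deficient and 61.2, 61.7 and 59.8 CPM in wild-type mice, which overlapped, at -0.14 ± 0.07 (SE, edgeR adjusted p = 0.279). Without deficient mouse 2 the Nr1h2 estimate was -0.06. Only genes of the transport and turnover role that these receptors are known to drive are given here. Abca1 and Abcg1, both efflux transporters, had log2 fold changes of -0.12 ± 0.08 and 0.0025 ± 0.07 (SE). Mylip, a ubiquitin ligase gene that lowers lipoprotein receptors, had -0.0037 ± 0.07 (SE). Offsets for GC content and length gave -0.05 for Abca1, and leaving out deficient mouse 2 gave -0.03. Without scaling beyond total counts Abcg1 turned to -0.011.

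None of the remaining turnover genes passed. Npc1 and Npc2, which export cholesterol from lysosomes, had log2 fold changes of -0.06 ± 0.06 and 0.03 ± 0.06 (SE), and Soat1, which makes cholesterol esters for storage, -0.08 ± 0.05 (SE). Lcat, the gene of an enzyme that esterifies cholesterol on lipoproteins, had from 75 to 103 reads in deficient and from 83 to 131 in wild-type mice, and its estimate of -0.30 ± 0.19 (SE) did not pass (edgeR adjusted p = 0.348). Without deficient mouse 2, its lowest library, the Lcat estimate was -0.14.

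The members also varied among deficient mice, and the roles did so in different directions. Deficient mouse 2 had the highest CPM of the 3 deficient mice for 14 of 18 synthesis enzymes, the exceptions being Mvd, Lss, Cyp51 and Ebp, against 34.6% of all genes tested. The same mouse had the lowest CPM of the 3 for 9 of 11 transport and turnover genes, the exceptions being Cyp46a1 and Mylip, against 37.1% of all genes tested. The mean deviation of the enzymes from their mean over all mice, in log2 CPM, was -0.08, 0.05 and -0.05 in deficient mice 1, 2 and 3, against 0.01, 0.03 and 0.03 in wild-type mice 1, 2 and 3. That of the transport and turnover genes was 0.05, -0.15 and -0.05 in deficient mice, against 0.03, 0.04 and 0.08 in wild-type mice. In both roles the genotypes overlapped. Deficient mouse 2 is also the mouse with the lowest cerebellar markers, and the part of tissue composition in these values was not tested. Without this mouse 1 of 34 members and 684 genes in all passed, and the median log2 fold change was -0.09 for the enzymes and -0.03 for the transport and turnover genes.

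**Figure D4:**
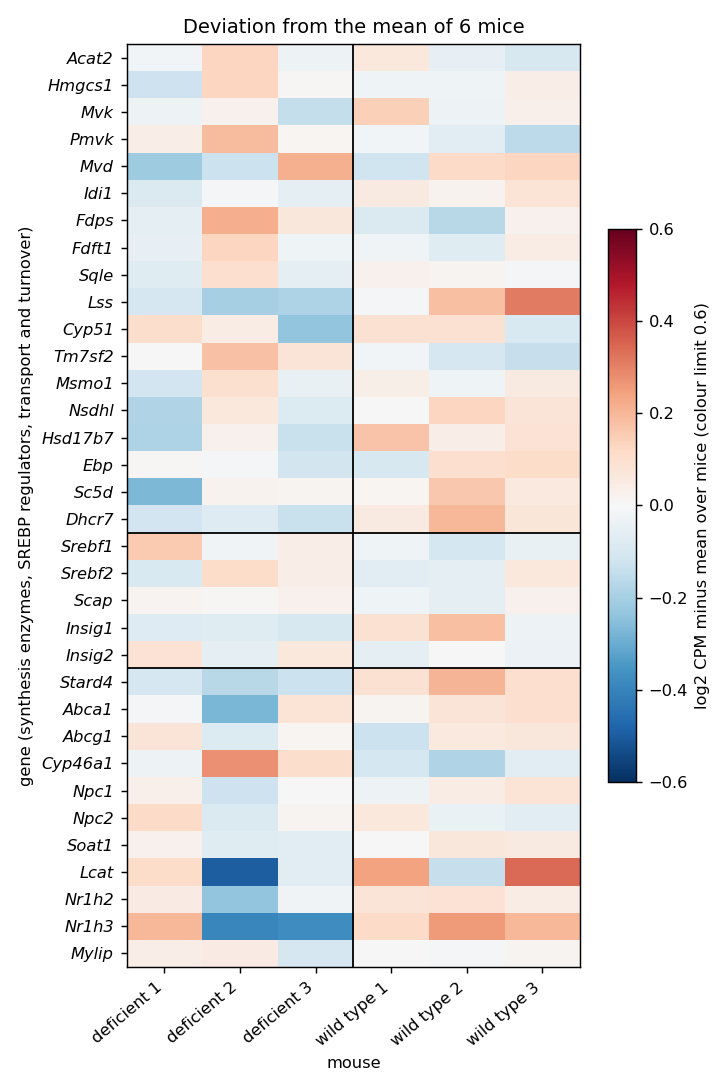
Colours give each member's log2 CPM in a mouse minus its mean over the 6 mice, from -0.6 to 0.6, with Kdm5c deficient mice in the 3 columns on the left and black lines between roles. The column of deficient mouse 2 is mostly warm among the enzymes and mostly cool among the transport genes, where Lcat reaches -0.50.

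Of 70 other genes of sterol and related lipid metabolism, 68 were tested, and 4 rose and 2 fell (8.82%), beside 4.93% of all genes tested. The lists of these genes were chosen with earlier results of these data known, so such shares describe the lists and test nothing. Within the rest of sterol and isoprenoid synthesis 1 of 12 passed (8.33%), and the median log2 fold change was 0.02. Pdss1, which encodes a subunit of the synthase for the coenzyme Q side chain, fell to 7.85, 7.18 and 7.37 CPM in deficient mice, against 11.2, 11.9 and 10.7 CPM in wild-type mice. The values lay far apart for their spread, with a log2 fold change of -0.59 ± 0.09 (SE, edgeR adjusted p = 0.0187). Exons of Pdss1 overlap antisense genes.

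In a list of fatty acid synthesis and related lipid genes, 1 of 16 passed (6.25%, near the 4.93% of all genes tested). The median log2 fold change was 0.02. Fads2, a desaturase gene of polyunsaturated fatty acids, had 118.3, 122.5 and 121.7 CPM in deficient and 95.5, 91.1 and 98.1 CPM in wild-type mice, a log2 fold change of 0.35 ± 0.05 (SE, edgeR adjusted p = 0.013). Of 14 genes of SREBP processing and sterol sensing none passed, and their median was 0.04. The nearest were Rnf145, a ubiquitin ligase gene, and Nfyb, a subunit gene of the CCAAT binding factor NF-Y, at 0.16 ± 0.05 and 0.13 ± 0.06 (SE, edgeR adjusted p = 0.0888 and 0.221).

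Among other genes of uptake, efflux and turnover, 3 of 26 tested rose and 1 fell, with Soat2 and Ch25h not tested, and 18 had log2 fold changes below 0, at a median of -0.11. The share called was 15.4%, beside 4.93% of all genes tested, and this list too was chosen with earlier results of these data known. Rxra, which encodes a partner of the liver X receptors, had 53.8, 54.3 and 52.5 CPM in deficient and 42.3, 41.8 and 44.8 CPM in wild-type mice, at 0.32 ± 0.05 (SE, edgeR adjusted p = 0.0193). Clu, the gene of the lipoprotein clusterin, had 731.7, 737.7 and 709.0 CPM in deficient and 619.6, 570.2 and 603.0 CPM in wild-type mice, at 0.28 ± 0.05 (SE, edgeR adjusted p = 0.0226). In both genes each genotype was narrow and the groups lay apart. Clu is strongly expressed in astrocytes, and the summed level of 12 astrocyte markers was 6128, 5814 and 6362 CPM in deficient and 5513, 5595 and 5828 CPM in wild-type mice, with 1 marker higher and none lower. Slc1a2 made up 2613, 3077 and 3031 CPM of the sums in deficient mice and 2408, 2421 and 2605 CPM in wild-type mice. Of the 12 markers, 8 had log2 fold changes above 0 and 4 below. Deficient mouse 2, which had the highest Clu level, was the lowest of the 3 deficient mice for 11 of the 12.

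Abca2, a transporter gene known from oligodendrocytes, had 512.5, 409.0 and 458.7 CPM in deficient and 564.3, 589.3 and 581.3 CPM in wild-type mice. Deficient mouse 2 was the lowest and the groups did not overlap. The genotypes differed by -0.33 ± 0.08 on the log2 scale (SE, edgeR adjusted p = 0.0449). The 12 oligodendrocyte markers also summed lower in deficient mice, at 7752, 6358 and 6168 CPM, than in any wild-type mouse. Deficient mouse 1 was close to the lowest wild-type mouse, which had 7784 CPM. The part of the astrocyte and oligodendrocyte markers in the values of Clu and Abca2 was not tested. The call of Abca2 was also lost with a filter of at least 5 CPM (edgeR adjusted p = 0.0509) and with GC and length offsets (0.0528). The calls of Pdss1, Rxra, Clu and Abca2 were lost without deficient mouse 3 and without wild-type mouse 1, 2 or 3, and that of Fads2 without wild-type mouse 1 or 2. Over the fits without a mouse the adjusted p by edgeR ranged from 0.0101 to 0.0988 for Pdss1, 0.013 to 0.103 for Rxra, 0.0135 to 0.107 for Clu, 0.0078 to 0.178 for Abca2 and 0.00745 to 0.0726 for Fads2.

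**Figure D5:**
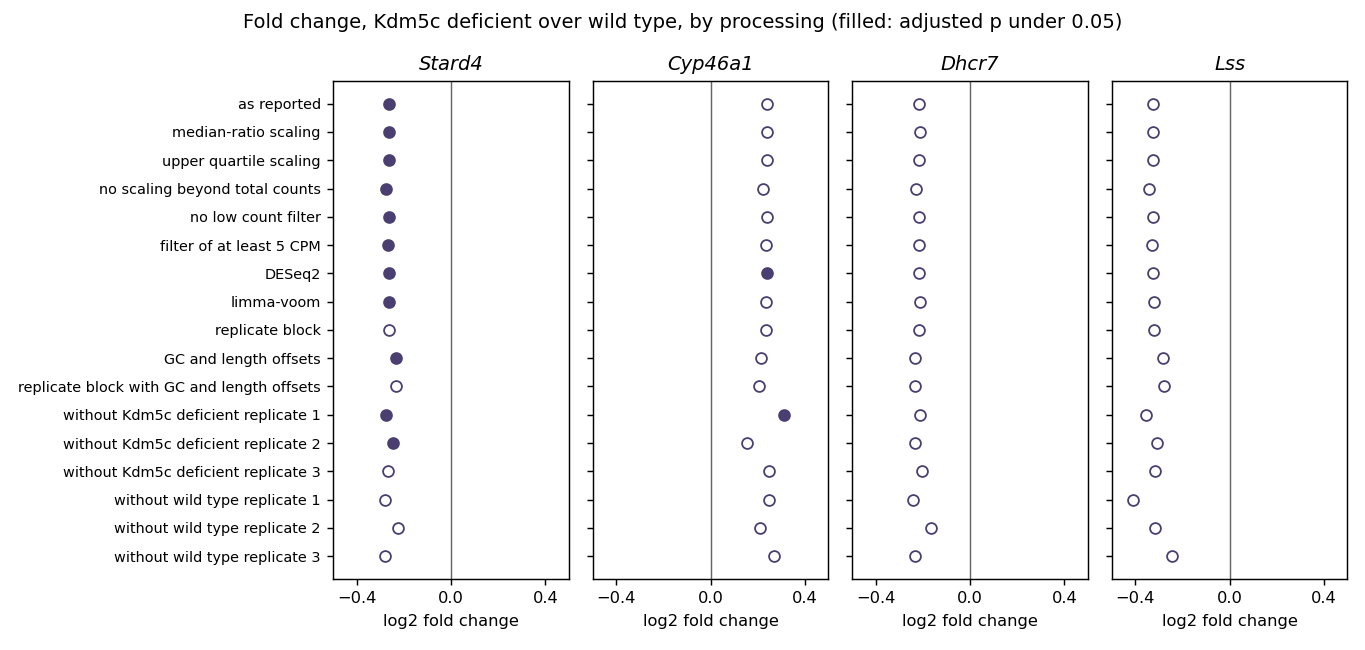
For Stard4, Cyp46a1, Dhcr7 and Lss, each point is the log2 fold change of Kdm5c deficient over wild type under the processing named on the left, filled where the adjusted p was under 0.05. The estimates keep their sides of 0 throughout, from -0.28 to -0.23 for Stard4 and from 0.16 to 0.31 for Cyp46a1.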

How the data were processed

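Per the file headers, the authors deposited raw counts per gene symbol and mouse, which the values bear out as whole numbers with unequal totals, and a mean signal over the 6 mice. They also deposited a log2 fold change, its test score and a p-value without adjustment, and the counts show that this fold change is wild type over deficient. The submitters' processing notes name DESeq2 and GRCm38, while the sources used here do not give the aligner, counting program, annotation or strandedness.

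The counts were tested with edgeR 4.0.16 (R 4.3.3): default expression filter (minimum count 10, total 15), trimmed mean of M-values scaling, quasi-likelihood test with genotype as the factor, and Benjamini-Hochberg adjustment over 15127 genes at 0.05. CPM are counts scaled by the library total after this scaling. The test was first tested on simulated data, with 50 genes changed at each size. It recovered 30% of the 1.25-fold, 60% of the 1.5-fold, 80% of the 2-fold and 94% of the 4-fold changes. A call in either direction counted as recovered. The sign was right for 93.3% of those recovered at 1.25-fold and for 100% at the larger sizes. Of the test's 139 calls, 7 were at unchanged genes. Small changes would thus often be missed. GENCODE M21 (GRCm38) gave exon lengths and overlaps. Exons of 11 members overlap another annotated gene. No pair of mice of the same genotype agreed within sampling noise (chi-square per gene from 3.55 to 17.6).

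The members and lists were chosen with earlier results of these data known. CPM per mouse is given for members that passed and the 4 with the smallest p-values in each role, and for Hmgcs1 outside this rule. Of each other list the genes that passed, or otherwise the 2 with the smallest p-values, are named. Genes of these lists that are not named are counted, and 1 gene that this rule takes is not reported here. Standard errors and intervals come from the edgeR fit, which combines a gene's spread between mice with information from all genes tested. Alternatives were other scalings, filters and tests (DESeq2 1.42.0, limma-voom in limma 3.58.1), GC and length offsets, the replicate number as a block, and leaving out each mouse.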

Additional observations from a re-analysis of the deposited data

How the results depend on the processing

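The direction of Stard4 held in all 16 alternatives, with log2 fold changes from -0.28 to -0.23, and its call in 10 of them. Over all genes, 746 calls became 1121 with no low count filter and 1213 with DESeq2, and leaving out a mouse gave 44 to 2098, with 2098, 684 and 155 without deficient mouse 1, 2 and 3, and 44, 53 and 99 without wild-type mouse 1, 2 and 3. Among the 34 members the count was 1, with 2 by DESeq2 and 0 to 3 without a mouse, 3 being without deficient mouse 1 and 0 without deficient mouse 3 or any wild-type mouse. Among the 70 other pathway genes it was 6, with 10 by DESeq2 and 0 to 11 without a mouse. Fits without a mouse also hold fewer mice.

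The labels do not say whether the replicate numbers pair the mice. The deviations of same-numbered mice correlated at -0.0604, -0.0602 and 0.14, and 2 of 6 libraries correlated best with their own number. So few mice cannot decide whether a number marks a shared litter or batch. With the replicate block there were 58 calls over all genes, 0 among the members and 0 among the other pathway genes, and with the replicate block and GC and length offsets 49, 0 and 0. Stard4 then had log2 fold changes of -0.26 and -0.23 (adjusted p = 0.095 and 0.108 by edgeR).

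The median of the SREBP regulators, 0.04, became 0.029 without scaling, 0.056 with GC and length offsets, 0.054 with these and the replicate block, and 0.026 to 0.063 without a mouse. The median of the enzymes, -0.07, was -0.09 to -0.02 without a mouse. That of the transport and turnover genes, -0.08, was -0.11 to -0.03 without a mouse and -0.03 with GC and length offsets, with or without the replicate block. Of the estimates near 0, those of Hmgcs1 and Abcg1 turned to -0.0029 and -0.011 without scaling. Leaving out a mouse turned 10 members in some fits, all uncalled, within -0.052 to 0.076 for Hmgcs1, -0.22 to 0.0084 for Mvd, -0.022 to 0.073 for Fdft1, -0.077 to 0.016 for Sqle, -0.12 to 0.042 for Cyp51, -0.10 to 0.010 for Msmo1, -0.0024 to 0.099 for Srebf2, -0.057 to 0.044 for Abcg1, -0.022 to 0.077 for Npc2 and -0.031 to 0.043 for Mylip. The cause of these changes was not tested. The least covered members, Lcat, Nr1h3 and Mvd, had 73 to 131 reads a mouse.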
